A study of Mus musculus with 20 samples.

Results

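The transcripts of 9 genes that make, use and recycle S-adenosylmethionine (SAM), the methyl donor for RNA methylation, were followed in livers of PCB-exposed mice. The members, Mat1a, Mat2a, Gnmt, Pemt, Nnmt, Ahcy, Bhmt, Cbs and Shmt1, were chosen by name, and each matched 1 of the 21780 Ensembl genes of the count table through the GENCODE M21 annotation. The 9 were among the 15522 genes that passed the filter of at least 10 counts in total. RNA came from 20 male C57Bl/6J mice, 5 separate animals in each of 4 groups and no engineered allele in any group. Every mouse, controls included, ate a high-fat diet (HFD, 42% of calories from fat) from 8 weeks of age for 12 weeks, so the effect of the diet itself cannot be read from these livers. At 10 weeks of age the mice received a single oral gavage. HFD control mice got corn oil, HFD + Aroclor mice got Aroclor 1260 at 20 mg/kg, HFD + PCB 126 mice got PCB 126 at 20 µg/kg, and HFD + Aroclor + PCB 126 mice got both at those doses. Aroclor 1260 is a commercial mixture of mainly non-dioxin-like PCBs, whereas PCB 126 is a dioxin-like congener that binds the aryl hydrocarbon receptor (AHR). Livers were taken 10 weeks after gavage by the study's methods, while the labels give 12 weeks. The doses of the mixture and the congener differed, and these exposures were not compared with each other.

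SAM is made from methionine and ATP by methionine adenosyltransferases, in adult hepatocytes mainly by the product of Mat1a. Methyltransferases pass its methyl group to glycine, lipids, nicotinamide, DNA, RNA and proteins and leave S-adenosylhomocysteine, which AHCY splits to homocysteine. Homocysteine is then methylated back to methionine, with betaine or a folate as the methyl source, or drawn into cysteine synthesis by CBS. The liver is the main site of this cycle, and the levels given here are of transcripts, not of enzyme, SAM or homocysteine.

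Total counts per library ranged from 21836506 to 36854887. Levels are given as CPM (counts scaled to the library total after TMM normalization, which allows for library composition). Log2 fold changes (log2FC) and p-values come from the quasi-likelihood test of edgeR, and each p was adjusted by the Benjamini-Hochberg method across the 15522 genes. A transcript was called changed at an adjusted p under 0.05. The libraries differed in how strongly their counts followed GC content. The slope of log2 CPM for each 10 points of GC ran from 0.0853 to 0.423 in HFD control, from -0.0954 to 0.11 in HFD + Aroclor, from -0.0975 to 0.352 in HFD + PCB 126 and from -0.543 to -0.121 in HFD + Aroclor + PCB 126. The slopes of control and combined mice did not overlap, so GC-corrected values are given with the calls. The sample numbers in the labels also ran through the groups in order, and what those numbers stand for is not given in the sources used here.

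The AHR target Cyp1a2 was read as a check of the exposure labels. It measured 249 to 517 CPM in HFD control, 279 to 492 in HFD + Aroclor, 1120 to 2601 in HFD + PCB 126 and 537 to 992 in HFD + Aroclor + PCB 126. Both groups given PCB 126 were above the controls without overlap (log2FC 2.04 ± 0.24 SE, adjusted p = 0.000294, and 1.00 ± 0.23, adjusted p = 0.00325), and both calls held after GC correction (2.10 and 1.09). Cyp1a1, another AHR target, rose with PCB 126 alone (log2FC 6.93 ± 1.08, adjusted p = 0.0095; 7.01, adjusted p = 0.00822, after GC correction), from 0.219 to 0.94 CPM in controls to 4.09 to 314 CPM. In the combined mice Cyp1a1 was at 0.792 to 2.62 CPM (log2FC 1.06 ± 1.10, adjusted p = 0.502), overlapping the controls. Cyp2b10, a target of the xenobiotic receptor CAR, had a log2FC of 1.97 ± 0.75 with Aroclor (adjusted p = 0.222) and 1.72 ± 0.75 with both (adjusted p = 0.083).

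In HFD control livers, on the FPKM scale (CPM per kilobase of exon), Mat1a was the most abundant member at 1536 ± 107 (SD, n = 5), followed by Gnmt at 727 ± 99.7, Bhmt at 435 ± 87.2 and Ahcy at 184 ± 13.6. These 4 levels did not overlap between mice. Pemt (109 ± 24.2), Nnmt (76.1 ± 15.8), Shmt1 (60.4 ± 12.7), Cbs (34.9 ± 4.13) and Mat2a (30.2 ± 5.6) followed, and each overlapped the next in this order. Mat1a ranked at the 99.8th percentile of tested genes and Mat2a at the 92.1st, so counting error was small for every member. In the combined mice the order of levels differed. Bhmt (501 ± 93.8 FPKM) stood above Gnmt (441 ± 67.3), with overlap, and Cbs (15.5 ± 3.95) was last, below Mat2a (43.4 ± 8.16) without overlap.

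**Figure D1:**
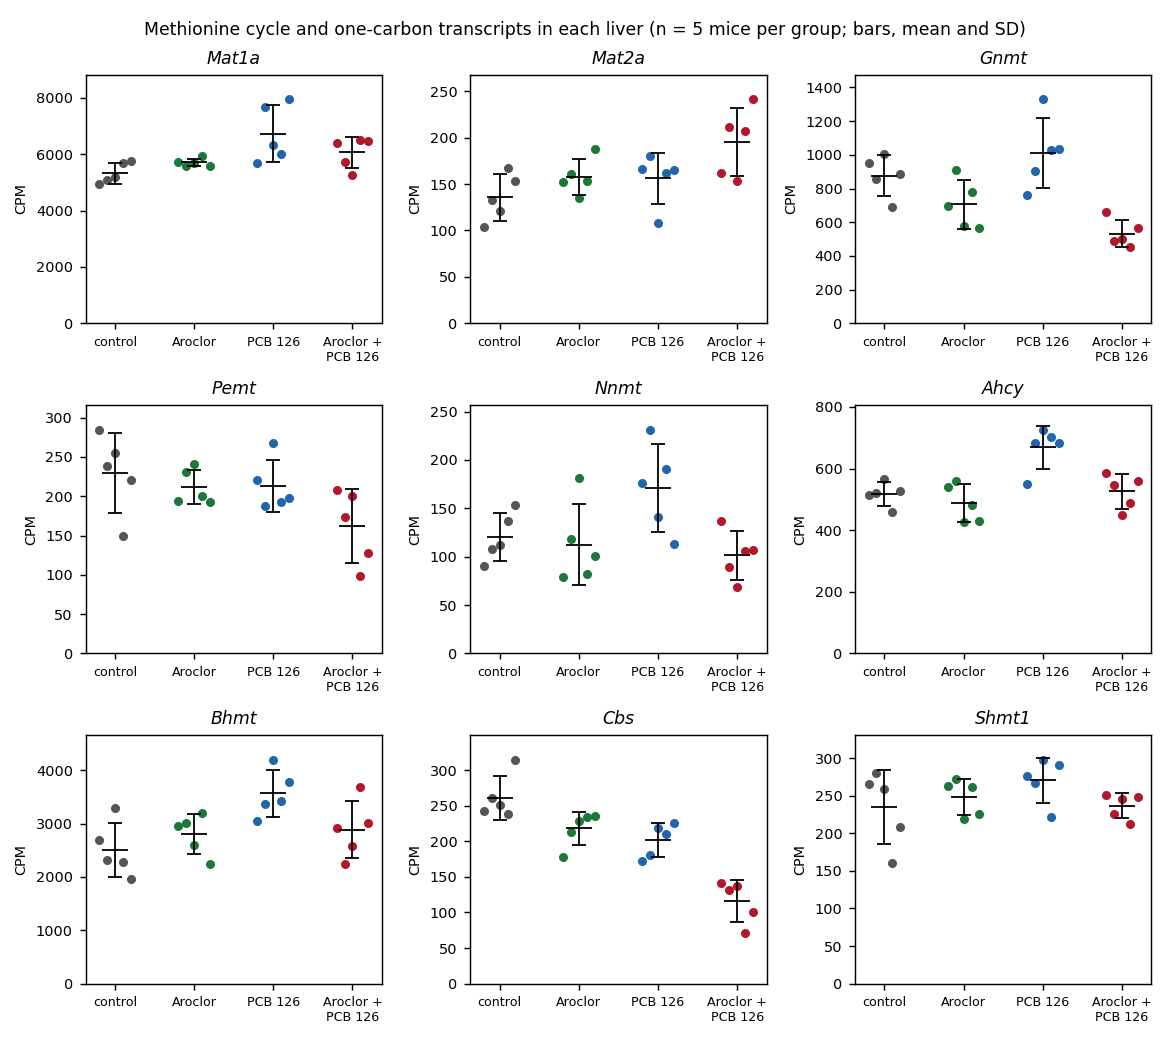
CPM (vertical axes, from 0) of the 9 transcripts in each of the 20 livers, with 5 mice per exposure group; points are mice and bars give the group mean and SD. Cbs fell from 238 to 314 CPM in the controls to 71.5 to 141 CPM in the combined mice, and Gnmt from 689 to 1006 CPM to 453 to 658 CPM.

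Aroclor alone gave no called member. By edgeR 0 of the 9 passed the threshold, 0 had an unadjusted p under 0.05, and DESeq2 also called 0. The background over the 15522 tested genes was 0% by edgeR, 17.2% at an unadjusted p under 0.05 and 0.870% by DESeq2. The log2FC ran from -0.31 for Gnmt to 0.22 for Mat2a, and the lowest adjusted p was 0.296. The median over the 9 was -0.09, beside -0.01 over all tested genes.

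PCB 126 alone also gave 0 called members by edgeR, against a background of 0.116% of tested genes. However, 5 members had an unadjusted p under 0.05, as did 14.7% of tested genes. DESeq2 called 3, Mat1a (adjusted p = 0.0209), Ahcy (0.0313) and Bhmt (0.0468), and 2.06% of tested genes. The edgeR log2FC was positive for 7 of 9 members, with a median of 0.21 beside -0.02 over all tested genes. The values stayed positive for those 7 after GC correction, with a median over the 9 of 0.33.

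With the combined exposure, 4 of the 9 members were called, against a background of 32.8% of tested genes, so the count alone sets the members little apart from the whole transcriptome. Mat2a was higher, against 15.8% of genes, and Gnmt, Pemt and Cbs were lower, against 17.0%. After GC correction 1 member was called, Cbs, against a background of 4.30%. The 3 comparisons share the HFD control mice.

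**Figure D2:**
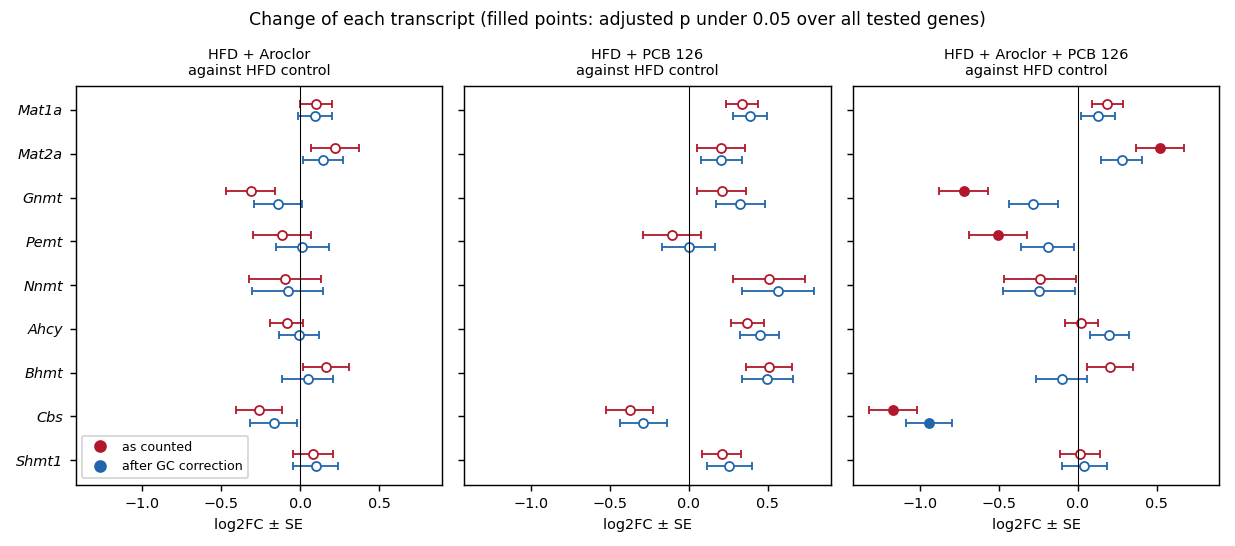
Log2FC ± SE (horizontal axis) of the 9 transcripts in each exposure group against HFD control, from edgeR on the counts as deposited (red) and after GC correction (blue); filled points passed an adjusted p of 0.05 over all tested genes. Cbs was the member called in both fits, at -1.17 and -0.94 with the combined exposure.

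Mat1a (chr14:41105035-41124412, plus strand, 10 exons in its longest transcript) encodes the methionine adenosyltransferase of the adult liver. It measured 4943, 5070, 5182, 5701 and 5745 CPM in the control mice, 5722, 5596, 5689, 5937 and 5597 with Aroclor, 5678, 7693, 6339, 6015 and 7947 with PCB 126, and 6389, 5731, 5266, 6502 and 6480 with both. The highest control was exceeded by 1 of 5 mice with Aroclor, 4 of 5 with PCB 126 and 3 of 5 with both, and each group overlapped the controls. The log2FC was 0.34 ± 0.10 with PCB 126 (adjusted p = 0.149) and 0.19 ± 0.10 with both (adjusted p = 0.16).

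Mat2a (chr6:72432799-72439558, minus strand, 8 exons) encodes the catalytic subunit of the form made in most other tissues and in growing hepatocytes. Its values were 104, 133, 121, 167 and 154 CPM in controls, 152, 161, 135, 153 and 188 with Aroclor, 166, 180, 108, 161 and 165 with PCB 126, and 162, 211, 153, 207 and 241 with both. The combined mice overlapped the controls, although 3 of 5 lay above every control. Mat2a rose with the combined exposure (log2FC 0.52 ± 0.15, adjusted p = 0.0128). GC correction reduced this to 0.28 ± 0.13 (adjusted p = 0.207). When library slopes entered as a covariate instead, the direction of Mat2a turned, to -0.27. At 46.2% GC, Mat2a is below the median of tested genes (50.2%), and 10.2% of its 75-base windows also occur in Gm9523 or Particl, so its counts are uncertain.

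The Mat1a to Mat2a ratio was taken within each liver, per exon length. It was 61.6, 49.3, 55.3, 44.2 and 48.4 in controls and 51.0, 35.1, 44.5, 40.7 and 34.8 in the combined mice, with geometric means of 51.4 and 40.8. The groups overlapped. The difference of -0.33 on the log2 scale had p = 0.0556 in an exact permutation test (two-sided, 252 splits; 0.167 adjusted over the 3 exposures), where the smallest p possible is 0.00794. After GC correction the difference was -0.14 (exact p = 0.317). With Aroclor the geometric mean was 47.1 (difference -0.13, exact p = 0.349) and with PCB 126 it was 56.1 (difference 0.13, exact p = 0.492).

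Mat2b, which encodes the regulatory subunit of MAT2A, stood above the controls in every combined mouse and in every mouse given Aroclor alone. It measured 35.9 to 39.8 CPM in controls, 41.5 to 54.4 with Aroclor, 38.7 to 49.7 with PCB 126 and 49.5 to 54.2 with both. In this direction 1.74% of tested genes did not overlap with Aroclor and 10.6% with both. The log2FC was 0.46 ± 0.08 with both (adjusted p = 0.00104) and 0.32 ± 0.08 with Aroclor (adjusted p = 0.184). Both groups overlapped the controls once GC content was corrected for, at 0.20 ± 0.09 with both (adjusted p = 0.193) and 0.22 ± 0.09 with Aroclor (adjusted p = 0.384). Mettl16, a methyltransferase of the Mat2a mRNA, had a mean of 19.5 ± 2.59 CPM in controls and 20.3 ± 1.27 in combined mice (log2FC 0.05 ± 0.10, adjusted p = 0.711), and GC correction turned the direction, to -0.23 ± 0.09 (adjusted p = 0.137).

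Among the methyltransferases, Gnmt (chr17:46725664-46729168, minus strand, 6 exons) encodes glycine N-methyltransferase, the abundant liver enzyme that disposes of excess SAM by methylating glycine. It measured 948, 855, 1006, 689 and 887 CPM in controls, 698, 909, 577, 777 and 568 with Aroclor, 764, 902, 1329, 1030 and 1035 with PCB 126, and 658, 486, 498, 453 and 563 with both. Every combined mouse was below every control and below every mouse given PCB 126 alone. Such a separation held in this direction for 8.14% and 5.93% of tested genes, respectively. The log2FC against controls was -0.72 ± 0.15 (adjusted p = 0.00225), and it was -0.28 ± 0.15 (adjusted p = 0.295) after GC correction, when the groups overlapped. Gnmt has the highest GC content of the 9 members (56.9%).

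Pemt (chr11:59970614-60046489, minus strand, 7 exons) encodes the enzyme that methylates phosphatidylethanolamine to phosphatidylcholine with SAM. It measured 285, 238, 255, 149 and 221 CPM in controls and 208, 174, 200, 99.1 and 128 in combined mice, and these groups overlapped. The log2FC of -0.51 ± 0.18 (adjusted p = 0.0385) became -0.19 ± 0.17 (adjusted p = 0.557) after GC correction. When library slopes entered as a covariate, its direction turned, to 0.36. The call was lost in 7 of 10 fits without 1 mouse, with an adjusted p of up to 0.109 without HFD control replicate 1, and kept without control replicate 4 and combined replicates 1 and 3. Pemt ranged from 193 to 240 CPM with Aroclor and from 188 to 267 with PCB 126.

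Nnmt (chr9:48591877-48605153, minus strand, 3 exons) encodes nicotinamide N-methyltransferase, which spends SAM on nicotinamide. Its values were 90.2, 108, 112, 136 and 153 CPM in controls, 79.4, 118, 182, 82.2 and 100.4 with Aroclor, 176, 231, 141, 191 and 113 with PCB 126, and 137, 89.8, 68.3, 106 and 107 with both. The groups overlapped throughout, and 3 of 5 mice with PCB 126 lay above every control. The log2FC was 0.51 ± 0.23 with PCB 126 (adjusted p = 0.31) and -0.24 ± 0.23 with both (adjusted p = 0.46).

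Ahcy (chr2:155059310-155074497, minus strand, 10 exons) encodes the hydrolase that removes S-adenosylhomocysteine, an inhibitor of methyltransferases. It measured 513, 521, 565, 459 and 528 CPM in controls, 541, 559, 425, 481 and 430 with Aroclor, 549, 682, 726, 701 and 684 with PCB 126, and 587, 545, 448, 488 and 559 with both. With PCB 126, 4 of 5 mice lay above every other mouse of the series, and replicate 1 lay within the control range. The log2FC with PCB 126 was 0.37 ± 0.10 (adjusted p = 0.124), and with both it was 0.02 ± 0.10 (adjusted p = 0.897). Of the 75-base windows of Ahcy, 65.9% also occur in Gm4737, Gm5638 or Gm9826, so reads can be lost or split among these copies and its level is uncertain.

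Bhmt (chr13:93616675-93637961, minus strand) encodes the enzyme that methylates homocysteine with betaine. It measured 2682, 2325, 3281, 2277 and 1966 CPM in controls, 2952, 3015, 2597, 3193 and 2245 with Aroclor, 3053, 3372, 4193, 3431 and 3772 with PCB 126, and 2925, 2240, 2576, 3684 and 3012 with both. With PCB 126, 4 of 5 mice lay above every control. The log2FC was 0.51 ± 0.15 with PCB 126 (adjusted p = 0.136) and 0.20 ± 0.15 with both (adjusted p = 0.307; -0.10 ± 0.16 after GC correction). Its windows are shared at 21.6% with Bhmt-ps1, Gm15622 and Gm5096, so its level is uncertain. Bhmt2, a neighbour 17759 bases away that methylates homocysteine with S-methylmethionine, rose with both (log2FC 0.28 ± 0.09, adjusted p = 0.0255; 0.22 ± 0.12, adjusted p = 0.274, after GC correction; called in 5 of 10 fits without 1 mouse) and had a log2FC of 0.36 ± 0.09 with PCB 126 (adjusted p = 0.0918).

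Cbs (chr17:31608894-31637238, minus strand, 17 exons) encodes cystathionine beta-synthase, which commits homocysteine to cysteine synthesis. It measured 243, 261, 252, 238 and 314 CPM in controls, 179, 213, 229, 234 and 235 with Aroclor, 173, 180, 218, 210 and 226 with PCB 126, and 141, 131, 137, 71.5 and 101 with both. Each of the 15 exposed mice was below each of the 5 controls, a pattern seen in this direction in 0.0773% of tested genes. In the combined mice Cbs fell by 1.17 on the log2 scale (SE 0.15, adjusted p = 0.000392), to 0.445 of the control level. After GC correction the fall in the combined mice was 0.94 (log2FC -0.94 ± 0.15, adjusted p = 0.00394) and those groups still did not overlap, which held for 2.76% of tested genes in this direction. The corrected single exposures did overlap the controls.

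Cbs with Aroclor (log2FC -0.26 ± 0.15, adjusted p = 0.354) and with PCB 126 (-0.38 ± 0.15, adjusted p = 0.261) was not called. Without overlap in this direction were 1.20% of tested genes with Aroclor, 0.908% with PCB 126 and 8.14% with both. With the slope of the library as a covariate in place of the correction, Cbs had a log2FC of -0.61 with the combined exposure (adjusted p = 0.268), and 0 of the 9 members were called there. The slope and the combined exposure are confounded in these libraries. Cth, the next enzyme of cysteine synthesis, had a mean of 355 ± 82.0 CPM in controls and 379 ± 83.3 in combined mice (log2FC 0.10 ± 0.17, adjusted p = 0.711), and GC correction turned the direction, to -0.26 ± 0.15 (adjusted p = 0.316).

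Shmt1 (chr11:60788104-60811718, minus strand, 12 exons) encodes the cytosolic serine hydroxymethyltransferase, which loads one-carbon units from serine onto folate. It ranged from 161 to 280 CPM in controls, 219 to 272 with Aroclor, 222 to 298 with PCB 126 and 213 to 251 with both, with overlap throughout. The log2FC was 0.21 ± 0.13 with PCB 126 (adjusted p = 0.462) and 0.01 ± 0.13 with both (adjusted p = 0.954). Its span overlaps that of Smcr8 in the count table, and 2.7% of its 75-base windows also occur in Smcr8, which makes that part of its counts uncertain.

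The change of a transcript in the combined mice followed its GC content across the tested genes with a mean of at least 1 CPM, which were placed in 20 GC bins. Genes in the bin nearest to Cbs (median GC 54.0%) had a median log2FC of -0.30, and those in the bin nearest to Gnmt (56.9%) had a median of -0.54. The log2FC of Pemt lay within the middle 50% of genes of like GC content and that of Gnmt at its lower edge, while that of Cbs lay below it.

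**Figure D3:**
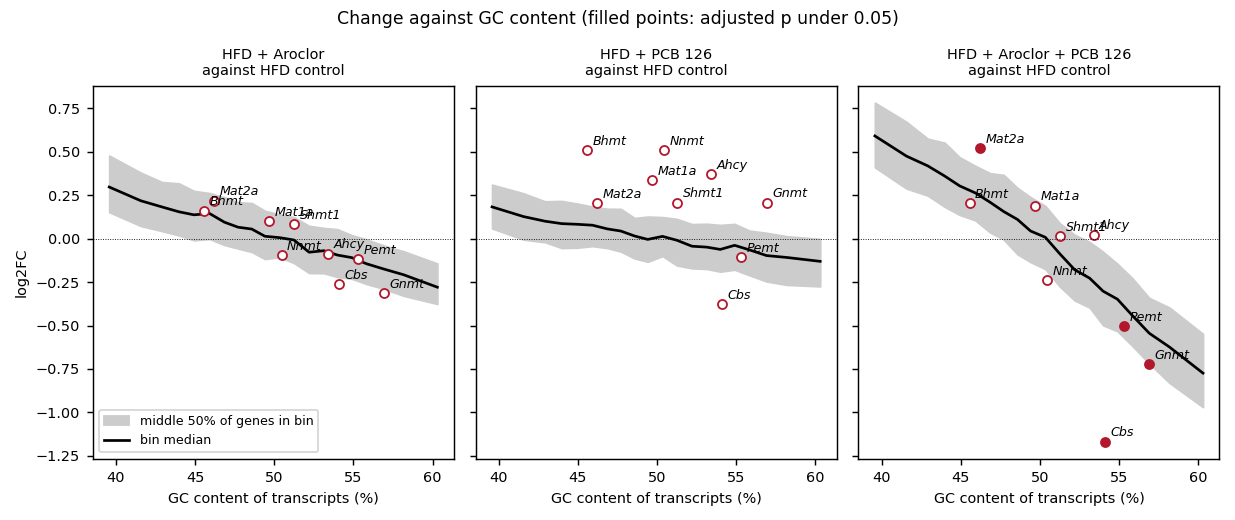
Log2FC against HFD control (vertical axis) by transcript GC content (horizontal axis, %) in the 3 exposure groups. The line is the median and the band the middle 50% of genes in each of 20 GC bins. The bins hold genes with a mean of at least 1 CPM. Points are the 9 transcripts, filled where called. With the combined exposure the line falls with GC content, and Cbs at -1.17 stands below the band whose median is -0.30.

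Within the combined group, the 2 libraries with the steepest slopes, replicates 4 (-0.543) and 5 (-0.436), held the lowest Cbs levels, 71.5 and 101 CPM. After GC correction these libraries were still the lowest of the group for Cbs, at 79.1 and 115 CPM. For Gnmt these libraries gave 453 and 563 CPM, the lowest and the second highest of the group. Among the controls, replicate 1 had the highest slope (0.423) and a Cbs level of 243 CPM. The highest control Cbs level, 314 CPM, was in replicate 5 (slope 0.174). The part of the slopes in the results was not tested beyond the corrected fits above.

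**Figure D4:**
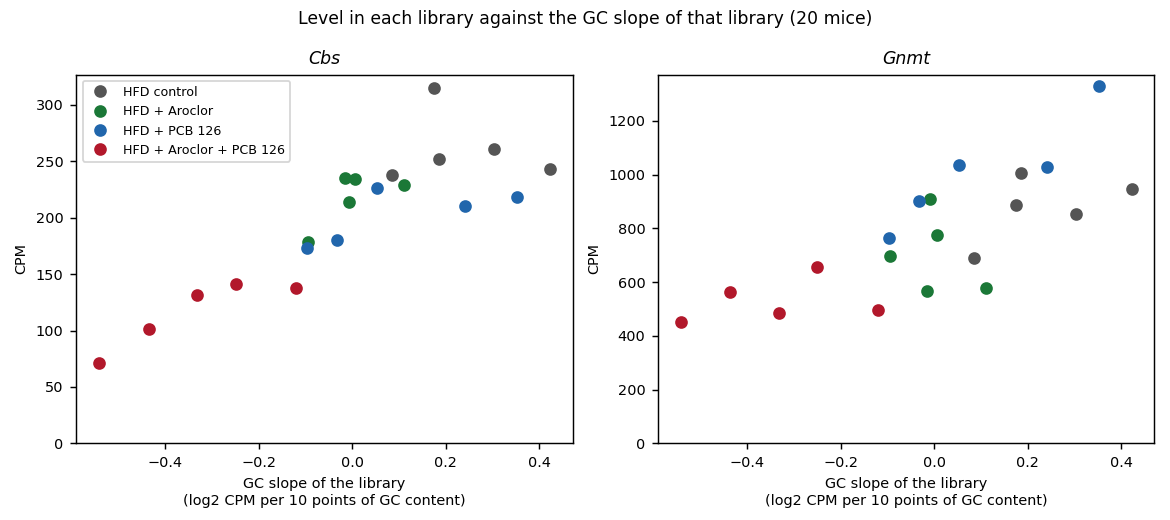
CPM of Cbs and Gnmt (vertical axes, from 0) in each of the 20 libraries against the GC slope of that library (horizontal axis, log2 CPM per 10 points of GC content), coloured by group. The 5 combined libraries have slopes from -0.543 to -0.121 and Cbs levels from 71.5 to 141 CPM, and no control library lies in either range.

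The combined mice were also compared with each single exposure. Against HFD + Aroclor, 1 of 9 members was called, against a background of 0.412% of tested genes. This was Cbs, with a log2FC of -0.91 ± 0.15 (adjusted p = 0.0269) and no overlap between the groups, which held in this direction for 4.17% of tested genes. With GC correction Cbs was at -0.77 ± 0.15 (adjusted p = 0.0963). The call was lost in 7 of 10 fits without 1 mouse, with an adjusted p of up to 0.108 without HFD + Aroclor + PCB 126 replicate 5, while the log2FC stayed between -0.80 and -0.95 in those 7. It was kept without HFD + Aroclor replicate 1 and without combined replicates 1 and 3.

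Against HFD + PCB 126, 4 of 9 members were lower and none was higher, against a background of 11.0% of tested genes lower and 16.7% called in either direction. Gnmt had a log2FC of -0.93 ± 0.16 (adjusted p = 0.0136), Cbs of -0.79 ± 0.15 (adjusted p = 0.0136), Nnmt of -0.75 ± 0.23 (adjusted p = 0.0337) and Ahcy of -0.35 ± 0.10 (adjusted p = 0.0307). Gnmt and Cbs did not overlap between these groups, as was so for 5.93% of tested genes in this direction. After GC correction their log2FC were -0.61, -0.65, -0.81 and -0.25 and no member was called, with a lowest adjusted p of 0.0827, and 0 of all tested genes were called (0%). Without HFD + PCB 126 replicate 3, these 4 calls were lost, at adjusted p = 0.0530 for Gnmt and Cbs, 0.0647 for Nnmt and 0.0889 for Ahcy, and 4 genes were called in all instead of 2589. The Nnmt call was also lost without PCB 126 replicate 2 or 4 or any of combined replicates 2 to 5, and the Ahcy call without PCB 126 replicate 4 or 5 or combined replicate 4 or 5. Bhmt, called in neither fit, had a log2FC of -0.30 ± 0.15 against HFD + PCB 126 (adjusted p = 0.141). After GC correction Bhmt was at -0.60 ± 0.16 (adjusted p = 0.10).

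The interaction asks whether the log2FC of the combined exposure departs from the added log2FC of Aroclor and PCB 126. By edgeR 0 of 9 members passed, with 3 at an unadjusted p under 0.05 (Gnmt, Bhmt and Cbs) and 0 by DESeq2. The background was 0% of tested genes by edgeR, 11.9% at an unadjusted p under 0.05 and 0.00644% (1 gene) by DESeq2. The estimate was negative for 8 of 9 members, from -0.65 for Nnmt to 0.10 for Mat2a, with a lowest adjusted p of 0.31. These estimates share the groups named above.

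The other genes of the pathway were read from 9 lists with 84 genes, and all 84 were tested. With Aroclor alone 0 of 84 were called by edgeR, 15 had an unadjusted p under 0.05, and DESeq2 called 3. The shares of all tested genes were 0%, 17.2% and 0.870% in the same order. With PCB 126 alone the counts were 0, 17 and 4 of 84, beside 0.116%, 14.7% and 2.06% of all tested genes. With both, 18 of 84 were higher and 18 lower, beside 15.8% and 17.0% of all tested genes. After GC correction 2 were higher and 1 lower, beside 1.92% and 2.38%, so these counts set the 84 little apart from the whole transcriptome. The 3 calls after correction were in the nicotinamide and CDP-choline lists, and the other 7 lists had 0. The median log2FC over the 84 was 0.05 with both, beside -0.00096 over all tested genes.

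In the methionine cycle and remethylation list 4 of 9 genes rose with both exposures and 0 fell, with a median log2FC of 0.28 that GC correction reduced to 0.05. Mat2b rose as given above, and Mtr, the folate-dependent methionine synthase, rose by 0.31 ± 0.12 (adjusted p = 0.0449; GC-corrected 0.11; called in 2 of 10 fits without 1 mouse). In the choline oxidation and betaine list 0 of 5 passed. In the folate cycle list 3 of 22 rose and 5 fell. Mthfd1l, a mitochondrial formate-producing enzyme, rose by 1.01 ± 0.32 (adjusted p = 0.0195; 1.06, adjusted p = 0.0542, after GC correction) and the mitochondrial folate carrier Slc25a32 by 0.53 ± 0.20 (adjusted p = 0.0414; called in 2 of 10 fits without 1 mouse). The folate transporter Slc46a1 fell by 0.55 (SE 0.16, adjusted p = 0.0141) and Ftcd, of histidine-derived one-carbon units, by 0.51 (SE 0.14, adjusted p = 0.0101). The calls of Mthfd1l and of these last 3 genes were lost after GC correction. The corrected log2FC of the last 3 was 0.20 (adjusted p = 0.548) for Slc25a32, -0.22 (adjusted p = 0.46) for Slc46a1 and -0.15 (adjusted p = 0.562) for Ftcd. Mthfd1l was low, at a mean of 1.35 CPM in controls and 2.75 CPM in combined mice.

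In transsulfuration and cysteine metabolism 1 of 10 rose and 3 fell. Gclm, a subunit of the rate-limiting enzyme of glutathione synthesis, rose by 0.38 ± 0.11 (adjusted p = 0.0102). The sulfide-handling genes Ethe1 (log2FC -0.91 ± 0.17, adjusted p = 0.00118) and Mpst (-0.67 ± 0.20, adjusted p = 0.0146) fell. Among small-molecule methyltransferases that use SAM, 2 of 10 rose and 2 fell. Histamine methyltransferase Hnmt rose by 0.94 ± 0.20 (adjusted p = 0.00228) and thiopurine methyltransferase Tpmt by 0.44 ± 0.11 (adjusted p = 0.00471), while Mettl7b (-0.46 ± 0.11, adjusted p = 0.00425) fell. None of these 6 genes was called after GC correction, with log2FC of 0.12 for Gclm, -0.39 for Ethe1, -0.10 for Mpst, 0.29 for Hnmt, 0.13 for Tpmt and -0.22 for Mettl7b.

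In polyamine synthesis and methionine salvage 3 of 9 rose and 1 fell. The spermine synthase Sms (log2FC 0.48 ± 0.12, adjusted p = 0.00518) and the salvage enzyme Adi1 (0.44 ± 0.10, adjusted p = 0.0025) rose, and Mri1 of the same salvage route fell (-0.68 ± 0.18, adjusted p = 0.00677). The calls were lost after GC correction, at 0.10 for Sms (adjusted p = 0.682), 0.17 for Adi1 (adjusted p = 0.381) and -0.25 for Mri1 (adjusted p = 0.292). In serine synthesis 2 of 3 fell. Phgdh, its first enzyme, was near the limit of detection, at 0.114 to 0.261 CPM in controls and 0 to 0.0700 CPM in combined mice. Its log2FC was -2.04 ± 0.70 (adjusted p = 0.0297; -1.68, adjusted p = 0.161, after GC correction), and the call was kept in 7 of 10 fits without 1 mouse. Psph had a log2FC of -0.46 ± 0.15 (adjusted p = 0.0223; kept in 8 of 10), which GC correction brought to -0.35 (adjusted p = 0.162).

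In the nicotinamide and NAD list 1 of 7 rose and 2 fell. Nampt, the rate-limiting enzyme that recycles nicotinamide to NAD, rose by 1.15 ± 0.14 (adjusted p = 0.000363), and this call held after GC correction (0.69 ± 0.12, adjusted p = 0.00745). Naprt, which makes NAD from nicotinic acid, fell (log2FC -1.17 ± 0.22, adjusted p = 0.0011), also after GC correction (-0.67 ± 0.17, adjusted p = 0.0343). Nadsyn1 had -0.38 ± 0.14 (adjusted p = 0.0452; kept in 5 of 10 fits without 1 mouse), which GC correction brought to -0.19 (adjusted p = 0.454).

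In the CDP-choline route, which makes phosphatidylcholine without SAM, 4 of 9 rose and 3 fell. Pcyt1a, the rate-limiting enzyme of the route, rose by 0.68 ± 0.12 (adjusted p = 0.00104), also after GC correction (0.56 ± 0.13, adjusted p = 0.0196), and Chpt1 rose by 0.80 ± 0.14 (adjusted p = 0.000748; 0.24, adjusted p = 0.337, after GC correction). Pcyt2, of the parallel phosphatidylethanolamine route (-0.79 ± 0.17, adjusted p = 0.00248), and Chkb (-0.63 ± 0.21, adjusted p = 0.0256; kept in 6 of 10 fits without 1 mouse) fell before GC correction and were not called after it (-0.23 and -0.29).

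**Figure D5:**
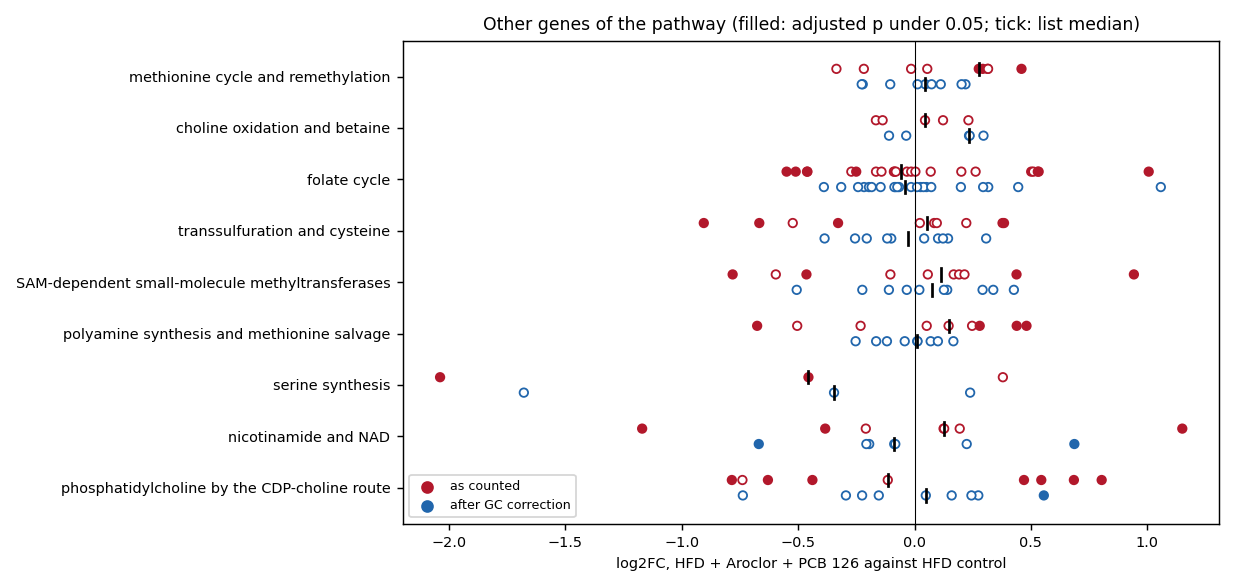
Log2FC of the 84 other pathway genes with the combined exposure against HFD control (horizontal axis), by list, as counted (red) and after GC correction (blue); filled points passed an adjusted p of 0.05 and ticks mark list medians. Of the 36 filled red points, 3 genes are filled after GC correction: Nampt, Pcyt1a and Naprt.

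To describe which genes varied most like each member, Pearson's r was taken over the 20 libraries after GC correction and after subtracting the group means, among 11341 genes. Gnmt and Ahcy were most like each other (r = 0.89; 0.83 without GC correction). The closest gene was Hip1r for Mat1a (0.88), Mapkapk2 for Mat2a (0.91), Dhrs3 for Pemt (0.95), Hspb8 for Nnmt (0.82), Cox16 for Bhmt (0.79), Hmbox1 for Cbs (0.91) and Hpgd for Shmt1 (0.95). The next were Dstn and Fip1l1 for Mat1a, Cdk17 and Taf4 for Mat2a, Cyp2c54 and 2310009B15Rik for Gnmt, Tecr and Pold4 for Pemt, Fgg and Chac1 for Nnmt, Ces2a and Las1l for Ahcy, Cmbl and Rpgr for Bhmt, Wiz and Ccm2 for Cbs, and Usp2 and Tk1 for Shmt1. Among the 36 pairs of members 27 had a positive r, with a median of 0.24 and a range of -0.56 to 0.89. The points share libraries, depth and base composition, so these are descriptions.

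PCB 126 binds AHR, and the promoters of the members were therefore read for the core letters of its response element, GCGTG, on both strands. RefSeq (GRCm38.p6) windows from 250 bases before to 50 after the start were matched for 7 members, with 2 start sites for Pemt. Mat1a and Nnmt were not matched. At least 1 match occurs in 32.4% of 32851 promoters, and at least 3 in 3.91%. Gnmt holds 3 matches, Mat2a, Ahcy and Shmt1 hold 1 each, and these letters are not in the windows of Cbs, Bhmt or Pemt. The matches of Gnmt and Ahcy are shown with the flanking bases on the gene's strand, and those of Mat2a and Shmt1 are not shown. Capitals mark GCGTG or its reverse complement.
Gnmt at -85, chr17:46729233-46729262: ggcccagcagggGCGTGtccctgctctcac
Gnmt at -16, chr17:46729164-46729193: taagtgcggatcGCGTGgcctgagagccag
Gnmt at 24, chr17:46729124-46729153: ggatggtggacaGCGTGtaccgtacccgct
Ahcy at -156, chr2:155074636-155074665: accgcctctctcCACGCtccctcctagtcg
A half-site of xenobiotic nuclear receptors, AGTTCA, was searched on both strands as well. It was in the window of Shmt1 and in 14% of all promoters. A match is a description of the sequence and no evidence of binding.

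The tissue label was read against cell type markers. The summed level of 7 hepatocyte genes was 46972 to 50825 FPKM in controls and 42276 to 55472 in combined mice, where 3 of the 7, Apoa1, Ttr and Serpina1a, were lower (1 after GC correction, Ttr). Alb, which made up the largest share of this sum, had a mean of 63441 ± 4566 CPM in controls and 71216 ± 10637 in combined mice (log2FC 0.17 ± 0.12, adjusted p = 0.313; -0.08 after GC correction). The 7 Kupffer cell and macrophage genes summed to 59.7 to 129 FPKM in controls and 69.3 to 96.6 in combined mice, and 1 was called higher. The 7 stellate cell and fibroblast genes summed to 21.6 to 43.9 and 45.4 to 52.5 FPKM, without overlap, and 3 of these were called higher and 1 lower (0 called after GC correction). Between controls and combined mice the sums of 6 endothelial genes (19.2 to 45.0 and 29.2 to 37.5 FPKM), 5 cholangiocyte genes (38.7 to 43.1 and 37.3 to 76.9), 5 lymphocyte genes (1.11 to 2.80 and 2.10 to 3.41), 5 erythroid genes (132 to 324 and 105 to 265) and 3 adipocyte genes (medians 1.51 and 0.0507) overlapped. Of these, 1 lymphocyte gene was called higher and 1 endothelial gene lower. The Kupffer cell, lymphocyte and endothelial calls, Adgre1, Ptprc and Stab2, were lost after GC correction. The part of these cells in the results was not tested. In whole liver, fewer cells of a type and less RNA per cell cannot be told apart.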

How the data were processed

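The authors prepared stranded libraries from polyadenylated liver RNA, checked reads with FastQC 0.10.1, aligned these with STAR 2.6 (GRCm38.p6) and counted per gene with HTSeq 0.10.0. The deposited values are raw counts per gene. The annotation release and the strand setting are not given in the sources used here. Groups follow the sample titles, and the label of PCB 126 replicate 2 carries differing numbers, of which the title's replicate number was kept. The depth, 21836506 to 36854887 counts per library, makes counting error small beside the spread between mice. Within groups no library was a copy of another: over 40 pairs the chi-square per degree of freedom was at least 18.7. Pairs across groups were not checked in this way.

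Genes with at least 10 counts in total (15522) were fitted with edgeR 4.0.16 in R 4.3.3 (TMM, 1 coefficient per group, all 20 libraries, 16 residual degrees of freedom). Each contrast was tested two-sided with Benjamini-Hochberg adjustment. GC correction entered a spline of each library's deviation on transcript GC content (6 degrees of freedom) as an offset, and 15516 tested genes have a GC content. A GC slope covariate, DESeq2 1.42.0, other normalizations and filters, a replicate block and leaving out each mouse were alternatives. The test was checked on simulated counts for the combined exposure against HFD control, with 200 genes changed by a log2FC of 1 up or down. These genes had a mean of at least 1 CPM. It called 80.5% of these, and 4.73% of its calls were false. Smaller changes and the other comparisons were not simulated, so these shares do not apply to them. The simulated libraries had no GC trends, so this check does not cover the slopes seen here.

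The named genes are the 9 members, Mat2b, Bhmt2, Mettl16 and Cth, up to 2 rises and 2 falls per list with the combined exposure, list genes called with a single exposure (there were 0), the 3 genes most like each member, and Cyp1a1, Cyp1a2 and Cyp2b10. The values of 1 gene under this rule are not reported here. The cell type markers Alb, Apoa1, Ttr, Serpina1a, Adgre1, Ptprc and Stab2 were named after their values were seen. The members and lists were chosen with earlier results of these data known. FPKM values were computed here from exon lengths of GENCODE M21.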

Additional observations from a re-analysis of the deposited data

Results flagged for a closer look

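In 2 of 36 groups of 5 mice (9 transcripts in 4 groups) a mouse lay far from the other mice of its group, which chance gives in about 1 of 20 groups. Mat2a was 108 CPM in HFD + PCB 126 replicate 3, where the other 4 mice were at 161 to 180 CPM. Ahcy was 549 CPM in HFD + PCB 126 replicate 1, below the 682 to 726 CPM of the other 4. The cause was not tested.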

How the results depend on the processing

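Of the values for single members, 423 kept their direction and their side of the threshold across settings other than leaving out a mouse, 23 lost and 5 gained a call and 26 turned direction. After GC correction the genes called were 47 with PCB 126, 668 with both, 3 against Aroclor and 0 against PCB 126, and members called were 1 with both and 0 against either single exposure. With the GC slope as covariate the genes called were 447, 676, 335, 0 and 0 in the order Aroclor, PCB 126, both, both against Aroclor and both against PCB 126, and the members 1 with PCB 126 (Ahcy, adjusted p = 0.0476) and 0 in the last 3. DESeq2 called 135 genes with Aroclor, 320 with PCB 126, 1343 against Aroclor and 1 for the interaction, and 3 members with PCB 126. The FPKM filter gave 47 with PCB 126 and 636 against Aroclor. RLE gave 107 against Aroclor, no filter 13, and only the groups compared 0 (4 with PCB 126), with 0 members against Aroclor.

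The labels give replicate numbers 1 to 5 in every group, but to different animals. The correlation of deviations of same-numbered mice ran from -0.26 to 0.744, over 0.1 in 13 of 30 pairs. Differently numbered mice were not compared, so these values cannot decide whether same-numbered mice share a source of variation. With the replicate block the genes called were 26 with Aroclor, 101 with PCB 126, 5292 with both, 475 against Aroclor, 3127 against PCB 126 and 38 for the interaction, and members 0, 0, 4, 1, 5 and 0. With block and GC correction together they were 25, 145, 933, 40, 153 and 44, and members 1 with both, 1 against Aroclor and 1 against PCB 126.

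Without 1 mouse the genes called ranged from 0 to 2 with Aroclor, 4 to 127 with PCB 126 (127 without PCB 126 replicate 3), 3894 to 5679 with both, 0 to 1036 against Aroclor (1036 without combined replicate 3) and 4 to 3416 against PCB 126 (4 without PCB 126 replicate 3). Members ranged from 3 to 4 with both, 0 to 1 against Aroclor and 0 to 4 against PCB 126. For the last, 2 members were called without PCB 126 replicate 4 or combined replicate 4 or 5.

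Direction turned as follows. With the slope covariate, the log2FC with Aroclor was -0.0041 for Mat1a, -0.095 for Mat2a and 0.26 for Pemt, and with PCB 126 it was 0.12 for Pemt. With both it was -0.069 for Mat1a, -0.27 for Mat2a and 0.36 for Pemt. Against Aroclor it was -0.065 for Mat1a, -0.17 for Mat2a, 0.096 for Pemt and 0.060 for Shmt1, and against PCB 126 it was -0.29 for Mat2a and 0.24 for Pemt. After GC correction Pemt was 0.011 with Aroclor, Bhmt -0.10 with both and -0.15 against Aroclor, and the Mat2a interaction -0.071 (-0.20 with the covariate). With block and correction Pemt was 0.043 with Aroclor and 0.026 with PCB 126, Bhmt -0.081 with both and -0.15 against Aroclor, and the Mat2a interaction -0.075. Shmt1 with both was -0.0023 with RLE, -0.0024 with DESeq2, -0.0041 with only the groups compared, and -0.096 to 0.065 without 1 mouse. Without 1 mouse Ahcy with both ranged from -0.019 to 0.057, Nnmt from -0.34 to 0.0082 with Aroclor and -0.28 to 0.096 against Aroclor, Shmt1 with Aroclor from -0.027 to 0.15, Bhmt against Aroclor from -0.087 to 0.12, and the Mat2a interaction from -0.0056 to 0.18. The cause of these turns was not tested.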
